A study of Rattus norvegicus with 35 samples.

Results

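The epidermal growth factor (EGF) receptor ligand genes Areg, Ereg, Hbegf, Tgfa, Btc and Egf, the receptor genes Egfr, Erbb2 and Erbb3, and Errfi1, whose protein inhibits the receptor, were followed in neonatal rat ventricular myocytes (NRVMs) under cyclic stretch. The genes were picked by symbol, as the probe sets whose annotation on the array names 1 of these symbols alone, and the brightest such probe set stands for its gene. This gave 10 genes with 13 probe sets, of 14217 genes and 31042 probe sets in all, because Tgfa had 2 probe sets and Egfr had 3.

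The myocytes came from ventricles of Sprague-Dawley rats aged 2 to 4 days, of both sexes, were enriched by preplating, and were grown on flexible collagen-coated plates in serum-free medium. Vacuum under the plates stretched the cells in cycles. Set I held 20 arrays, of unstretched NRVMs and of NRVMs stretched for 1, 4 and 12 h. Set II held 15 arrays, of NRVMs stretched for 24 and 48 h and of its own unstretched NRVMs, and each of the 7 groups had 5 biological replicates. The labels mark the 2 control groups by a letter alone and do not name their times. The series' design text treats 1, 4 and 12 h as 1 experiment. The first letter was taken as the control of these times, and the intensity level that the arrays of a set share goes with this reading. The upper quartile of intensity lay at 341 to 372 on the arrays of set I, controls included, and at 395 to 416 on those of set II. Times were compared within a set only.

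EGF receptor ligands are made as precursors in the cell membrane and are released by metalloproteases, after which they bind the EGF receptor on the same or a nearby cell. The receptor pairs with itself or with Erbb2 or Erbb3 and signals through Ras and the kinase ERK, and Errfi1, also named Mig6, is made in response and blocks the kinase domain of the receptor. In cardiac myocytes, shedding of the Hbegf protein and signalling through ERBB receptors are known for their part in growth and survival of the cells.

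Areg, Ereg, Hbegf and Tgfa were above unstretched NRVMs at all 5 times, while Errfi1 was above them at 1 and 4 h alone, and Egfr was below them from 4 h on. Areg and Ereg are neighbours on rat chromosome 14, with Btc next to Areg and no other protein-coding gene between the 3, and Egfr lies on the same chromosome with 433 protein-coding genes between it and Ereg. The remaining members lie on other chromosomes. The 250 bases before the annotated start are in the RefSeq promoter table (assembly GRCr8) for 8 of the 10 members, without Ereg and Erbb3. The windows of Areg and Errfi1 are shown because they were the only ones of the 8 to hold a match to the motifs searched, and the matches are in capitals.
Areg, chr14:17265642-17265891, minus strand: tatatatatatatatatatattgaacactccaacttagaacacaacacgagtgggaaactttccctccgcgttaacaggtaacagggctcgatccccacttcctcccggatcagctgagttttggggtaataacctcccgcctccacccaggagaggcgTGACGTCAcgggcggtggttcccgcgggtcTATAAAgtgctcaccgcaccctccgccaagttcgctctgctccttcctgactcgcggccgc
Errfi1, chr5:166606591-166606840, plus strand: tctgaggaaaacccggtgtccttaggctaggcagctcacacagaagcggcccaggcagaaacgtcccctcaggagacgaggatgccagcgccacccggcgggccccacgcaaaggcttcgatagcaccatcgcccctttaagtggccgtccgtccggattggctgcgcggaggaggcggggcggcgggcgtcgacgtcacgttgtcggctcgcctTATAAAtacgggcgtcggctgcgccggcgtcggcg
The motifs were searched on both strands, and no match overlapped another. The Areg window held TGACGTCA, the cyclic AMP response element, beginning 91 bases before the start, and TATAAA beginning 61 bases before it. The Errfi1 window held TATAAA beginning 35 bases before the start. Of 33469 promoter windows of this length, TGACGTCA was found in 1.59% and TATAAA in 12.9%. The letters of the AP-1 motif TGANTCA (6.34% of all windows), of the EGR motif GCGNGGGCG (4.29%) and of the CArG box (1.5%) were in none of the 8 windows.

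In the account below, levels are log2 of the intensity per probe set, a fold change is the stretched group over the unstretched group of its set, and the adjusted p comes from limma with Benjamini-Hochberg adjustment over all 31042 probe sets. An adjusted p under 0.05 was the limit for a call. Each of the 10 members was tested, and 7 of them had a mean level of at least 6 in both sets. Btc, Egf and Erbb3 did not. The mean of a set takes in its stretched arrays, and Ereg had a mean level of 5.55 in unstretched NRVMs of set II, which is under 6. Replicate arrays of a group correlated at 0.9917 to 0.9983 in set I and at 0.9898 to 0.998 in set II over all probe sets. The array of replicate 5 at 4 h stood farthest apart in set I, with a mean correlation of 0.9938 to the other 4 arrays of its group. The values of the called members at 4 h are therefore also given without it. In set II, replicate 4 at 24 h (0.9924) and replicate 4 of the unstretched NRVMs (0.9936) stood farthest apart. At 24 h the log2 fold changes without the one or the other of these 2 arrays were 1.47 and 1.54 for Areg, 2.09 and 2.11 for Ereg, 1.17 and 1.09 for Hbegf, 1.12 and 1.24 for Tgfa, and -0.43 and -0.36 for Egfr, all still called.

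At 1 h, 5 of 10 members were called higher and 1 lower, where 6.32% of all probe sets were called higher and 7.52% lower. At 4 h, 5 members were higher and 1 lower (14.2% and 15.2% of probe sets), and at 12 h 4 were higher and 1 lower (16.3% and 16.9%). At 24 h, 4 members were higher and 1 lower (9.14% and 9.13% of probe sets). At 48 h, 4 were higher and 3 lower (16.9% and 16%). These shares are of probe sets, while members and the lists below are counted by gene. Of 31042 probe sets, 4297, 9121, 10306, 5672 and 10209 were called in either direction in order of time. With 1 probe set per gene it was 2745, 5578, 5916, 3820 and 6231 of 14217, a larger share at each time. Areg, Ereg, Hbegf and Tgfa were at least 1.5-fold higher at each time, with Errfi1 as the fifth such member at 1 h, where the share of probe sets in order of time was 0.751%, 1.52%, 1.82%, 1.25% and 2.83%. Egfr was the only member lower by at least 1.5-fold, at 4, 12 and 48 h (1.55%, 2.41% and 4.64% of probe sets), and none was at 1 and 24 h (0.561% and 1.66%). Egfr was close to this limit, and with each array centred on its median its log2 fold change fell short of 1.5-fold at 4 h (-0.58) and at 12 h (-0.56). With the mean of its probe sets it was -0.41 at 4 h and -0.43 at 12 h. At these times the brightest of them had -0.61 and -0.59, the next brightest -0.78 and -0.67, and the dimmest 0.16 and -0.02. With array weights the log2 fold change of Egfr was -0.58 at 4 h. It also fell short at 12 h without replicate 2 or 4 at 12 h or replicate 2 or 4 of the unstretched NRVMs (-0.55 to -0.58), and at 4 h without replicate 4 or 5 at 4 h or replicate 4 of the unstretched NRVMs (-0.47 to -0.58). The adjusted p of Egfr stayed under 0.05 in all of these. Groups without overlap were found for the same numbers of members as the calls, other than 1 instead of 3 lower members at 48 h. Of all probe sets, the higher ones without overlap made up 6.2%, 10.3%, 14%, 6.77% and 12.2% in order of time, and the lower ones 7.73%, 10.5%, 13.9%, 6.65% and 12.2%. The median log2 fold change of the members in the same order was 0.41, 0.32, 0.11, 0.02 and 0.07, while the median over all probe sets lay between -0.0024 and 0.0313. The comparisons at 1, 4 and 12 h share the same unstretched arrays, as do those at 24 and 48 h. The members were chosen with earlier results of these data known. Their counts therefore do not test whether they changed more often than other genes. In bulk RNA of a culture, a different number of cells of a type and a different amount of RNA per cell cannot be told apart.

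Areg encodes amphiregulin, a ligand that binds the EGF receptor alone among the ERBB receptors. In set I, Areg had levels of 6.81, 6.69, 6.54, 6.62 and 6.72 in unstretched NRVMs, of 8.56, 8.57, 8.26, 8.40 and 8.74 at 1 h, of 7.99, 7.96, 8.07, 7.90 and 8.22 at 4 h, and of 8.08, 8.37, 8.04, 8.35 and 8.02 at 12 h. All 15 stretched arrays of the set were above all 5 unstretched ones. In set II, Areg had 7.59, 7.81, 7.43, 7.85 and 7.63 at 24 h and 8.57, 8.89, 8.45, 8.07 and 8.86 at 48 h, against 6.12, 5.85, 6.22, 6.22 and 6.31 in unstretched NRVMs. The groups again did not overlap, and every array at 48 h was above every array at 24 h. Areg was 3.56-fold higher than in unstretched NRVMs after 1 h (log2 fold change 1.83, SE 0.09, adjusted p = 4.53e-12), 2.56-fold after 4 h (adjusted p = 5.1e-10) and 2.82-fold after 12 h (adjusted p = 9.14e-11). It was 2.87-fold higher after 24 h (adjusted p = 4.56e-06) and 5.37-fold after 48 h (log2 fold change 2.42, SE 0.14, adjusted p = 5.78e-09). By log2 fold change, Areg ranked 15, 19, 17, 13 and 5 among the 14217 genes at the 5 times, where 1 is the largest rise.

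Ereg encodes epiregulin, which binds the EGF receptor and Erbb4. In set I, Ereg had levels of 6.50, 6.51, 6.27, 6.56 and 7.04 in unstretched NRVMs, of 9.25, 9.05, 9.14, 9.05 and 9.09 at 1 h, of 7.92, 7.67, 7.90, 7.99 and 7.74 at 4 h, and of 7.89, 8.17, 7.97, 8.20 and 7.95 at 12 h. The 5 arrays at 1 h lay close together and above every array of the other groups. In set II, Ereg had 8.10, 7.72, 7.25, 7.54 and 7.49 at 24 h and 7.42, 7.97, 7.78, 7.10 and 8.17 at 48 h, against 5.35, 5.37, 5.61, 5.69 and 5.72 in unstretched NRVMs. The lowest stretched array of set II was thus well above the highest unstretched one, and the 24 and 48 h arrays overlapped. Ereg was 5.82-fold higher after 1 h (log2 fold change 2.54, SE 0.10, adjusted p = 1.79e-13), 2.41-fold after 4 h (adjusted p = 1.03e-08), 2.75-fold after 12 h (adjusted p = 1.14e-09), 4.21-fold after 24 h (adjusted p = 3.6e-06) and 4.41-fold after 48 h (adjusted p = 1.99e-07). Its ranks among the rises in the same order were 6, 25, 20, 2 and 8.

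Hbegf encodes heparin-binding EGF-like growth factor, which binds the EGF receptor and Erbb4. In set I, Hbegf had levels of 7.59, 7.72, 7.64, 7.83 and 7.76 in unstretched NRVMs, of 9.44, 9.41, 9.15, 9.25 and 9.20 at 1 h, of 8.46, 8.85, 9.04, 9.06 and 8.67 at 4 h, and of 8.17, 8.34, 8.42, 8.42 and 8.29 at 12 h. Each stretched group lay below the one before it in time without overlap, and all of them lay above unstretched NRVMs. In set II, Hbegf had 7.46, 8.14, 7.89, 8.02 and 8.07 at 24 h and 8.50, 8.77, 8.27, 8.23 and 8.51 at 48 h, against 6.47, 6.52, 6.98, 6.28 and 7.35 in unstretched NRVMs. Its unstretched arrays of set II were more spread (SD 0.43) than those of set I (SD 0.09), and the highest of them was still below the lowest stretched array. Hbegf was 2.99-fold higher after 1 h (log2 fold change 1.58, SE 0.09, adjusted p = 1e-10). It was 2.15-fold higher after 4 h (adjusted p = 1.75e-08) and 1.54-fold after 12 h (adjusted p = 2.4e-05). After 24 h it was 2.3-fold higher (adjusted p = 0.000239) and after 48 h 3.34-fold (adjusted p = 1.57e-06). Its ranks among the rises in order of time were 22, 39, 199, 35 and 26.

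Tgfa encodes transforming growth factor alpha, which binds the EGF receptor. In set I, Tgfa had levels of 6.07, 6.48, 6.36, 6.35 and 6.31 in unstretched NRVMs, of 7.04, 6.88, 7.03, 7.01 and 7.03 at 1 h, of 7.15, 7.46, 7.55, 7.36 and 7.18 at 4 h, and of 7.84, 8.16, 8.15, 8.13 and 7.91 at 12 h. The 4 groups followed each other upward in time with no overlap. In set II, Tgfa had 7.80, 7.88, 7.66, 7.63 and 7.37 at 24 h and 7.65, 7.87, 7.76, 7.47 and 8.08 at 48 h, against 6.58, 6.43, 6.49, 7.04 and 6.22 in unstretched NRVMs. The 24 and 48 h arrays overlapped, and both groups lay above all unstretched arrays. The fold changes were 1.6 after 1 h (adjusted p = 7.36e-06), 2.03 after 4 h (adjusted p = 1.15e-08), 3.3 after 12 h (log2 fold change 1.72, SE 0.08, adjusted p = 5.57e-12), 2.17 after 24 h (adjusted p = 6.12e-05) and 2.32 after 48 h (adjusted p = 4.62e-06). Tgfa ranked 112 among the rises at 1 h, 48 at 4 h and 8 at 12 h, and then 47 at 24 h and 96 at 48 h. Its dimmer probe set gave fold changes of 1.45, 1.87, 2.94, 1.98 and 2.07 at the 5 times, each of them called (adjusted p between 1.69e-09 and 0.00229).

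**Figure D1:**
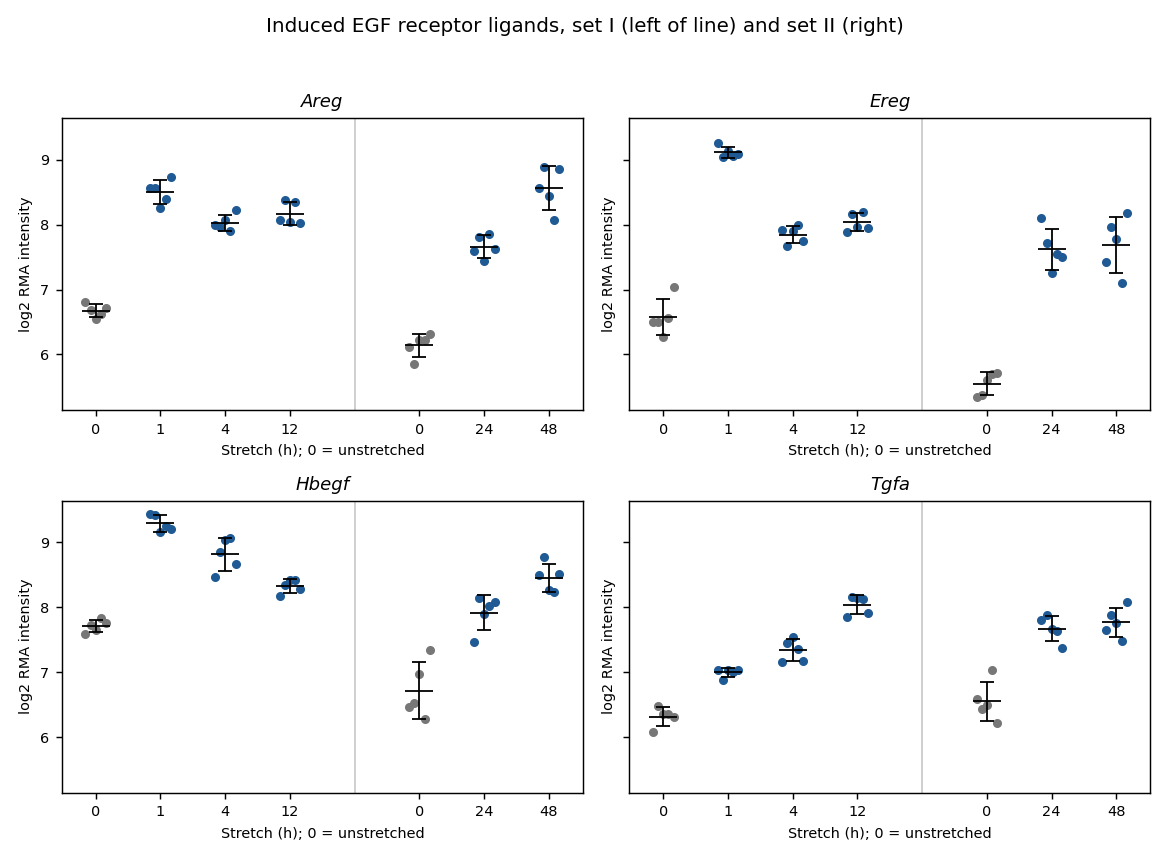
Levels of Areg, Ereg, Hbegf and Tgfa (log2 of RMA intensity, vertical) in each array against hours of stretch (horizontal, 0 for unstretched NRVMs), with set I left and set II right of the grey line; points are arrays (5 a group), bars the mean and SD. Ereg peaked at 1 h in set I (9.12 ± 0.08), Tgfa was highest there at 12 h (8.04 ± 0.15), and all stretched arrays lie above the unstretched arrays of their set.

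Btc and Egf, which encode the ligands betacellulin and EGF, were dim and were called at none of the 5 times. Btc levels lay between 5.36 and 6.33 over the 20 arrays of set I and between 5.48 and 5.93 over the 15 arrays of set II. Its log2 fold changes ran between -0.13 at 48 h and 0.21 at 4 h, and the last of these was 0.07 without replicate 5 at 4 h, whose Btc level of 6.33 was the highest of all 35 arrays. Egf levels lay between 3.80 and 4.74 in set I and between 4.44 and 5.17 in set II. Its log2 fold changes ran between -0.26 after 4 h (adjusted p = 0.0943) and -0.03 at 48 h. Without replicate 5 at 4 h, whose Egf level of 3.80 was the lowest of all 35 arrays, the value at 4 h was -0.12. Egf was called lower at 4 h without replicate 1 at 4 h (adjusted p = 0.0118). It was also called lower at 24 h without replicate 5 of the unstretched NRVMs (adjusted p = 0.0377). For Btc, the chromosomal neighbour of Areg and Ereg, the upper end of the 95% interval was a 1.3-fold rise at 1 h and a 1.36-fold rise at 4 h. These intervals hold for the signal of a dim probe set, in which changes are compressed, and do not bound the change of the transcript.

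Egfr encodes the receptor that all 6 ligands bind. In set I, Egfr had levels of 8.35, 8.49, 8.44, 8.59 and 8.46 in unstretched NRVMs, of 8.12, 8.16, 8.42, 8.26 and 8.14 at 1 h, of 8.14, 8.25, 7.84, 7.75 and 7.30 at 4 h, and of 7.96, 7.83, 7.95, 7.71 and 7.94 at 12 h. The arrays at 1 h overlapped the unstretched ones, and those at 4 and 12 h did not. In set II, Egfr had 9.11, 8.87, 8.85, 8.99 and 8.82 at 24 h and 8.42, 8.47, 8.65, 8.63 and 8.51 at 48 h, against 9.16, 9.33, 9.36, 9.55 and 9.31 in unstretched NRVMs. The 3 groups of set II were separated from each other. Egfr was at 0.656 of the unstretched intensity after 4 h (log2 fold change -0.61, SE 0.12, adjusted p = 0.000518), 0.664 after 12 h (adjusted p = 0.000576), 0.751 after 24 h (adjusted p = 0.00107) and 0.571 after 48 h (log2 fold change -0.81, SE 0.08, adjusted p = 5.17e-07). At 1 h its log2 fold change of -0.25 did not pass the test (adjusted p = 0.209).

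The second Egfr probe set was at 0.584 of unstretched NRVMs after 4 h (adjusted p = 0.000605), 0.63 after 12 h (adjusted p = 0.00205) and 0.602 after 48 h (adjusted p = 0.00265). At 1 h and at 24 h it was at 0.781 and 0.79, with adjusted p values of 0.151 and 0.185. At 24 h the call of Egfr therefore rests on the brightest probe set. The third probe set, with a mean level of 4.29 in set I and 4.77 in set II, was called at none of the 5 times. Without replicate 5 at 4 h, the array that stood apart, the log2 fold change of Egfr at 4 h was -0.47 (adjusted p = 0.000437), which is no longer past 1.5-fold. Those of Areg (1.31), Ereg (1.30), Hbegf (1.14), Tgfa (1.06) and Errfi1 (0.44) stayed close to their values with it.

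**Figure D2:**
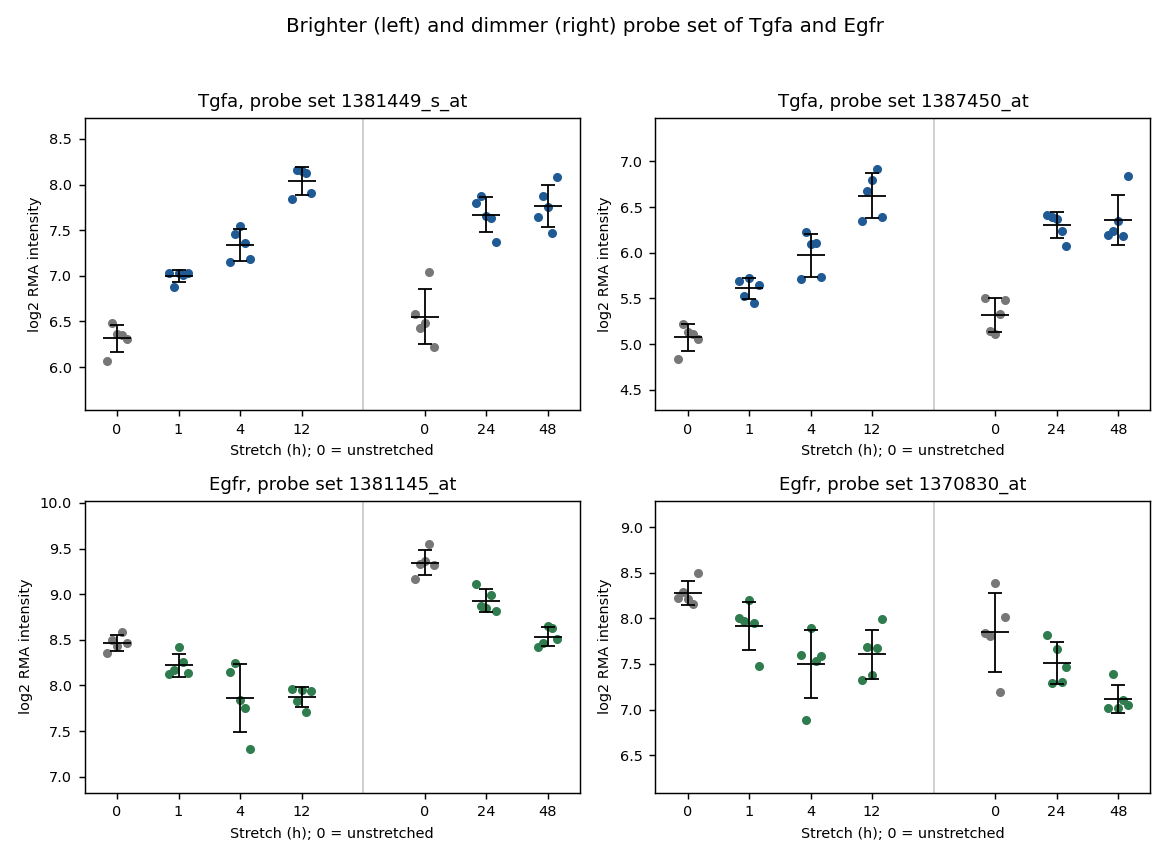
Levels (log2 of RMA intensity, vertical) by hours of stretch (horizontal, 0 for unstretched NRVMs) in the brighter and the next brighter probe set of Tgfa (top) and Egfr (bottom); points are arrays (5 a group), bars the mean and SD, and the grey line parts set I from set II. Both Tgfa probe sets are higher in every stretched group, and the second Egfr probe set overlaps between 24 h (7.51 ± 0.23) and unstretched NRVMs (7.85 ± 0.43).

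Erbb2 encodes the receptor partner that has no ligand of its own. At 1 h, Erbb2 levels were 7.96, 7.87, 7.88, 7.87 and 7.80 in stretched NRVMs, against 8.08, 8.12, 8.0, 8.19 and 8.02 in unstretched NRVMs. The 5 stretched arrays lay below the 5 unstretched ones, and the intensity was at 0.87 of theirs (log2 fold change -0.20, SE 0.06, adjusted p = 0.0284). At 4, 12 and 24 h its log2 fold changes were 0.05, -0.05 and -0.02, none called. At 48 h Erbb2 was at 0.859 of unstretched NRVMs, with overlapping arrays (7.99 ± 0.12 and 8.21 ± 0.14, SD, n = 5 each; adjusted p = 0.0268). When each array was centred on its median, the adjusted p of Erbb2 was 0.0795 at 1 h and 0.0755 at 48 h. Erbb3, which encodes the kinase-impaired receptor for neuregulins, lay between 5.01 and 5.61 over all 35 arrays and was called at none of the 5 times. Its log2 fold change was largest at 48 h (0.18, SE 0.08, adjusted p = 0.105) and passed the test after the median centring (0.23, adjusted p = 0.0367).

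Errfi1, the feedback inhibitor, had levels of 9.24, 9.24, 9.24, 9.24 and 9.12 in unstretched NRVMs of set I, of 11.14, 11.34, 11.18, 11.28 and 11.04 at 1 h, of 9.63, 9.55, 9.75, 9.70 and 9.61 at 4 h, and of 9.21, 9.31, 9.30, 9.38 and 9.19 at 12 h. The groups at 1 and 4 h were separate from each other and from unstretched NRVMs, and the arrays at 12 h overlapped the unstretched ones. In set II, Errfi1 had 9.79, 9.61, 9.73, 9.58 and 9.76 at 24 h and 9.59, 9.77, 9.50, 9.45 and 9.80 at 48 h, against 9.72, 9.83, 9.90, 9.94 and 10.06 in unstretched NRVMs. All but 2 arrays at 48 h lay below the unstretched ones, and the 24 h arrays overlapped them. At 1 h the log2 fold change of Errfi1 was 1.98 (SE 0.06, adjusted p = 3.7e-16). Errfi1 ranked 13 among the rises at 1 h and 512 at 4 h, where it was 1.35-fold higher (log2 fold change 0.43, SE 0.06, adjusted p = 4.55e-06). Its log2 fold change at 12 h was 0.06 with a 95% interval of -0.05 to 0.18 (adjusted p = 0.449). Its log2 fold change at 24 h was -0.20 (adjusted p = 0.0993). At 48 h Errfi1 was at 0.829 of unstretched NRVMs (adjusted p = 0.0142), with an SE of 0.08 on the log2 scale.

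**Figure D3:**
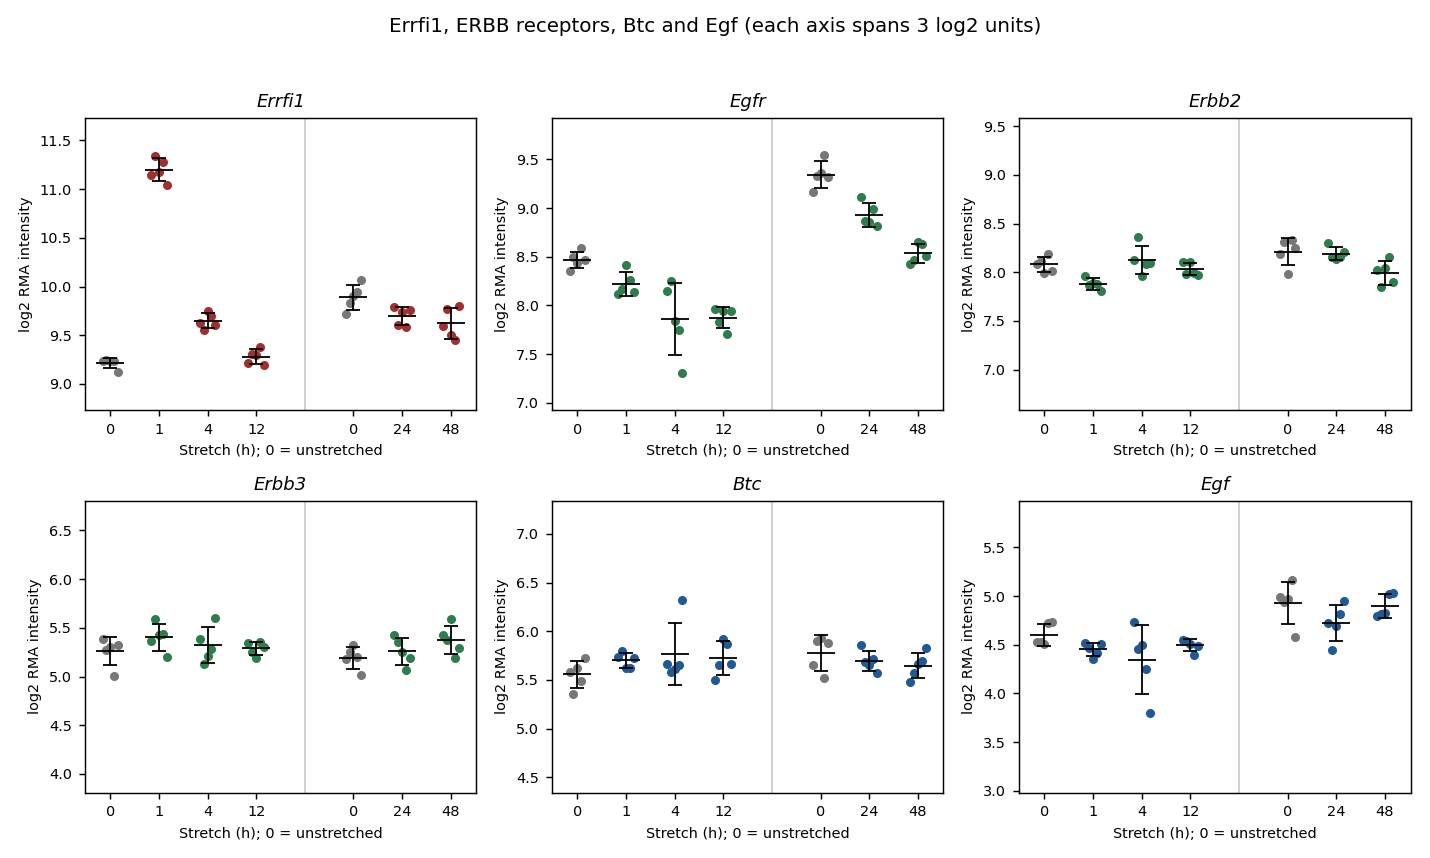
Levels of Errfi1, Egfr, Erbb2, Erbb3, Btc and Egf (log2 of RMA intensity, vertical; each panel spans 3 log2 units) by hours of stretch (horizontal, 0 for unstretched NRVMs), with set I left and set II right of the grey line; points are arrays (5 a group), bars the mean and SD. Errfi1 stands at 11.20 ± 0.12 at 1 h and 9.28 ± 0.08 at 12 h, and Egfr at 48 h lies at 8.53 ± 0.10, below its unstretched NRVMs (9.34 ± 0.14).

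The question whether a member changed between times of a set was tested directly, on the same fit. At 4 h against 1 h, 4 members were lower and 2 higher, where 6.17% of all probe sets were called lower and 7.15% higher. Errfi1 was at 0.341 of its 1 h intensity (adjusted p = 5.63e-14) and Ereg at 0.414 (adjusted p = 4.3e-08), while Areg and Hbegf were both at 0.719 (adjusted p = 0.00101 and 0.00163). Tgfa was 1.27-fold higher at 4 h than it had been at 1 h (adjusted p = 0.00861), and Erbb2 1.19-fold higher (adjusted p = 0.00788). At 12 h against 4 h, Tgfa was the only member called higher (1.62-fold, adjusted p = 1.03e-05; 4.25% of probe sets), and Hbegf (0.713 of the 4 h intensity, adjusted p = 0.00162) and Errfi1 (0.774, adjusted p = 0.00014) were lower (5.13% of probe sets).

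At 12 h against 1 h, Tgfa was 2.06-fold higher (adjusted p = 1.47e-08; 11.3% of probe sets were called higher) and 5 members were lower (10% of probe sets). These were Errfi1 (0.264 of the 1 h intensity), Ereg (0.472), Hbegf (0.513), Egfr (0.788, adjusted p = 0.0463) and Areg (0.793, adjusted p = 0.00913). The difference of Egfr did not pass the test with its second probe set (0.807, adjusted p = 0.182) or in 17 of the 20 fits that left out 1 array. At 48 h against 24 h, Areg was 1.87-fold higher (adjusted p = 0.000855; 2.08% of probe sets) and Egfr was at 0.761 (adjusted p = 0.00448; 4.03%). The second Egfr probe set gave nearly the same ratio there (0.762) with an adjusted p of 0.21. Hbegf was 1.45-fold higher at 48 h than at 24 h with groups that did not overlap, and did not pass the test (adjusted p = 0.0953). Between times, groups without overlap in the higher and the lower direction made up 5% and 4.62% of probe sets at 4 h against 1 h (1 and 4 members), 3.5% and 4.01% at 12 h against 4 h (1 and 2 members), 9.3% and 8.43% at 12 h against 1 h (2 and 4 members), and 2.66% and 4.52% at 48 h against 24 h (2 and 1 members). The ratios of Ereg (1.05, 95% interval 0.802 to 1.37) and Tgfa (1.07, 95% interval 0.872 to 1.31) were near 1.

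**Figure D4:**
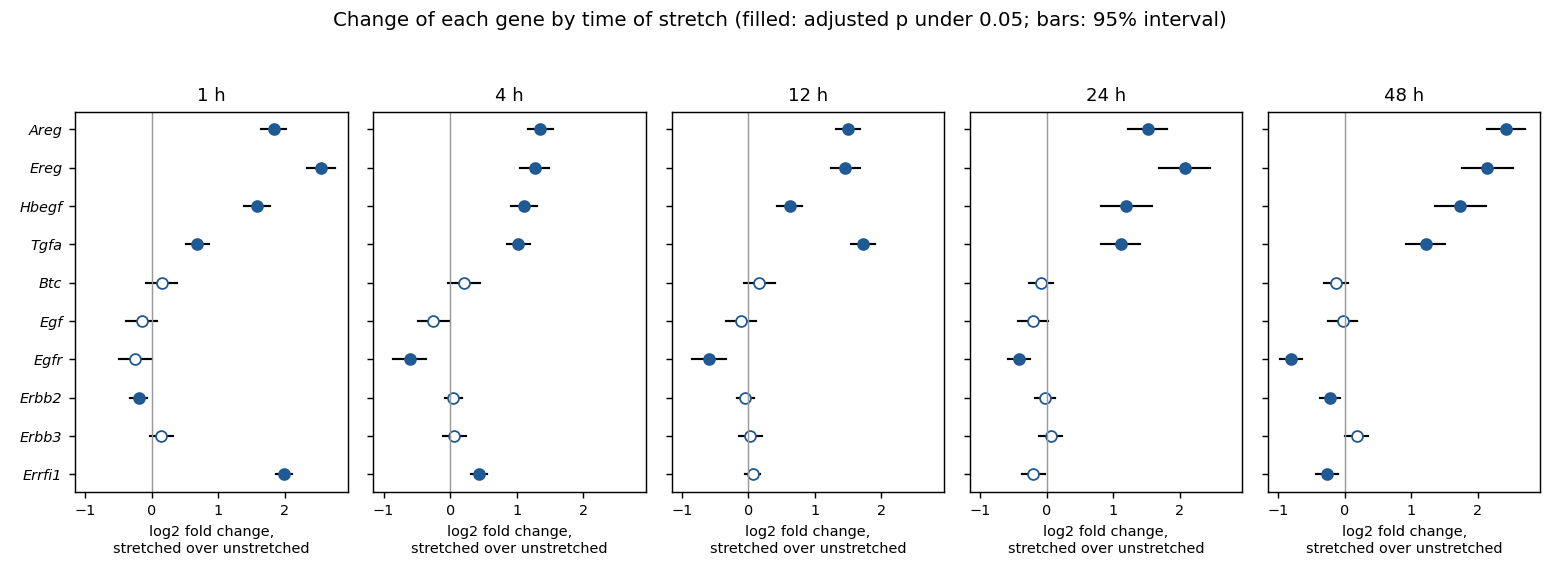
Log2 fold change of each member (rows), stretched over unstretched NRVMs of the same set (horizontal), in a panel for each time; filled points have an adjusted p under 0.05 and bars are the 95% interval. Areg, Ereg, Hbegf and Tgfa lie right of 0 at all 5 times, Errfi1 lies at 1.98 at 1 h and 0.06 at 12 h, and Egfr lies left of 0 throughout with an open point at 1 h.

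Over the 20 arrays of set I, the induced ligands differed in how alike their levels were. Pearson's r was 0.93 between Areg and Ereg, 0.90 between Ereg and Hbegf and 0.85 between Areg and Hbegf, while Tgfa had 0.67 with Areg, 0.45 with Ereg and 0.32 with Hbegf. Errfi1 had 0.83 with Hbegf, 0.82 with Ereg, 0.61 with Areg and -0.10 with Tgfa. Over the 15 arrays of set II, r lay between 0.79 and 0.95 for all pairs of Areg, Ereg, Hbegf and Tgfa, and between -0.60 and -0.53 for Errfi1 with each of them. These values describe arrays that share their groups and normalization, and the differences between the group means enter all of them.

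The genes most like each member over the same 20 arrays were taken by the highest r. For Areg they were Fosl1 (0.982) and Myc (0.973), which encode transcription factors, and Coq10b (0.976), a mitochondrial coenzyme Q binding protein. For Ereg they were Fosl2 (0.970), Ier2 (0.964) and Tnfaip6 (0.962), which encode an AP-1 subunit, an immediate early protein and a hyaluronan-binding protein. For Hbegf they were the kinase gene Plk2 (0.980), the activin subunit gene Inhba (0.975) and the prostaglandin synthase gene Ptgs2 (0.965). For Tgfa they were Adm (0.971), Ninj1 (0.970) and Prps1 (0.965), which encode adrenomedullin, an adhesion protein and a nucleotide synthesis enzyme. Of these, Adm had log2 fold changes of 0.30, 0.79 and 1.23 at 1, 4 and 12 h, beside 0.68, 1.02 and 1.72 for Tgfa. For Errfi1 they were the thin filament gene Lmod2 (0.992), the nuclear receptor gene Nr4a1 (0.990) and the zinc finger gene Egr1 (0.990), and Nr4a1 had log2 fold changes of 2.58, 0.32 and 0.10 at 1, 4 and 12 h beside 1.98, 0.43 and 0.06 for Errfi1.

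Of the remaining ERBB ligand and receptor genes, Nrg1, Nrg2, Nrg4 and Erbb4 were measured, 4 of 6 listed. None was called at 1, 4, 12 or 24 h, and their median log2 fold change lay between -0.04 and 0.04 at the 5 times. At 48 h Nrg2, a neuregulin gene, was 1.15-fold higher (adjusted p = 0.0394) and Erbb4, which encodes the receptor for neuregulins, Hbegf and Ereg, was at 0.86 of unstretched NRVMs (adjusted p = 0.0481). Both were dim, with means of 4.99 and 4.38 at 48 h against 4.79 and 4.60 in unstretched NRVMs. Nrg1 and Nrg4 were dim as well, with means of 5.53 and 4.05 in unstretched NRVMs of set II. Changes are compressed in dim probe sets, so the lack of calls does not bound the change of these transcripts.

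Of the metalloproteases that release the ligands and their partners, 7 of 8 listed genes were measured. None was called at 1 h, 3 were higher and 1 was lower both at 4 h and at 12 h, 1 was higher and 1 lower at 24 h, and 1 was higher and 2 lower at 48 h. Counts here, for the neuregulin genes and Erbb4 above, and for the lists of the next paragraphs are to be read against all probe sets. These lists are the adaptor, negative regulator and ERK feedback genes. Of all probe sets, 6.32%, 14.2%, 16.3%, 9.14% and 16.9% were called higher in order of time, and 7.52%, 15.2%, 16.9%, 9.13% and 16% lower. The median log2 fold change of the metalloprotease genes was 0.04, 0.12, 0.18, -0.08 and -0.23 in order of time. Adam10, one of the ligand-releasing proteases, was the only one past 1.5-fold at any time. It was 1.53-fold higher after 12 h (adjusted p = 0.00113) and at 0.506 of unstretched NRVMs after 48 h (adjusted p = 0.00933), and its arrays were spread in set II (SD 0.67 at 24 h, 0.34 at 48 h and 0.37 in unstretched NRVMs). At 24 h it was at 0.636 of unstretched NRVMs and was not called (adjusted p = 0.107).

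Of 21 adaptor and relay genes listed, 15 were measured. At 1, 4, 12, 24 and 48 h, 1, 1, 2, 0 and 2 of them were higher, 2, 3, 2, 1 and 4 were lower, and none was past 1.5-fold. Their median log2 fold change lay between -0.04 and 0.02. Of 12 genes for negative regulators of the receptors other than Errfi1, 11 were measured. At the same times 3, 5, 5, 2 and 3 of them were higher and 1, 2, 2, 1 and 3 lower, again none past 1.5-fold, with medians between -0.03 and 0.10.

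Of 9 ERK feedback genes listed, 7 were measured, with 4, 2, 4, 2 and 3 higher and 2, 1, 1, 1 and 3 lower at the 5 times, and medians of 0.36, 0.16, 0.18, -0.04 and 0.07. Dusp6, which encodes an ERK phosphatase, was 2.43-fold higher after 1 h (adjusted p = 1.67e-10), 1.88-fold after 4 h, 1.51-fold after 12 h, 1.33-fold after 24 h (adjusted p = 0.0191) and 1.5-fold after 48 h (adjusted p = 0.000743). Dusp5, a related phosphatase gene, was 1.54-fold higher after 1 h (adjusted p = 2.55e-06) and at 0.746 of unstretched NRVMs after 48 h (adjusted p = 0.00409). Spry1, which encodes a Sprouty inhibitor of receptor signalling, was lower at all 5 times, and was at 0.564 of unstretched NRVMs after 12 h (adjusted p = 1.48e-09) and 0.583 after 48 h (adjusted p = 6.4e-06).

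Markers of cardiomyocytes were bright in every group, with mean levels of 11.59 to 14.24 for the 7 of 8 listed genes that were measured, and 2, 3, 4, 4 and 5 of them were lower at the 5 times, with 1 higher at 24 and at 48 h. Their summed intensity ran between 83515 and 87693 at 1 h, between 81195 and 86803 at 4 h and between 80190 and 83790 at 12 h, against 87817 to 91807 in unstretched NRVMs of set I, without overlap. In set II it ran between 80857 and 84135 at 24 h and between 75832 and 79392 at 48 h, against 85691 to 88497 in unstretched NRVMs, again without overlap. The 8 fibroblast markers were bright as well (9.06 to 13.90). The marker counts are to be read against the 7.52%, 15.2%, 16.9%, 9.13% and 16% of all probe sets called lower in order of time. For markers called higher, the shares of all probe sets were 6.32%, 14.2%, 16.3%, 9.14% and 16.9%. Fibroblast markers were called lower for 2 of 8 genes at 1 h, 6 of 8 at 4 and 12 h, 1 of 8 at 24 h and 5 of 8 at 48 h, and 1 of 8 was higher at 24 h. Their summed intensity at 1 h ran between 68047 and 70410 and at 4 h between 63851 and 68233. At 12 h it ran between 65449 and 69130, and unstretched NRVMs of set I had 70478 to 75415. At 24 h it ran between 70302 and 73993 and at 48 h between 63396 and 71174, against 75015 to 78195 in those of set II. The median log2 fold change of the 8 fibroblast markers was -0.08, -0.13, -0.15, -0.08 and -0.18 in order of time. At 4, 12, 24 and 48 h, 1 of the 8 was called lower by at least 1.5-fold. Pdgfra, a receptor gene of fibroblasts, was at 0.694, 0.446, 0.466, 0.641 and 0.485 of unstretched NRVMs in order of time. Of the 6 measured endothelial markers, 4, 4, 2 and 5 were lower at 4, 12, 24 and 48 h. By at least 1.5-fold, 1 was lower at 12 h and 4 at 48 h. Their median log2 fold change was -0.12, -0.29, -0.44, -0.27 and -0.67 in order of time. Their sums ran between 1298 and 1711 at 4 h and between 1363 and 1633 at 12 h, against 1764 to 2168 in unstretched NRVMs of set I, and between 2358 and 2661 at 24 h and 1799 and 1973 at 48 h, against 2614 to 3454 in those of set II. The dimmest endothelial marker, Vwf, had a mean level of 4.37 to 5.35 in the 7 groups.

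Of the 7 macrophage markers, 1, 2, 3 and 6 were lower at 4, 12, 24 and 48 h. By at least 1.5-fold, 1 was lower at 24 h and 3 at 48 h. Their median log2 fold change was -0.01, -0.02, -0.08, -0.25 and -0.40 in order of time. In set II their sum was 1552 to 1808 at 24 h and 1253 to 1377 at 48 h, against 1874 to 2037 without stretch. In set I it overlapped at all times (520 to 630). The sums of the smooth muscle and pericyte markers ran between 5717 and 6460 at 1 h, between 5927 and 6942 at 4 h and between 4829 and 5598 at 12 h, against 4659 to 5201 in unstretched NRVMs of set I. In set II they ran between 3142 and 5080 at 24 h and between 4147 and 5121 at 48 h, against 2688 to 3470 in unstretched NRVMs. The ranges at 12 and 24 h overlapped those of unstretched NRVMs. Of these 6 markers, 2, 3, 1, 3 and 3 were higher and 0, 1, 1, 0 and 1 lower at the 5 times. At least 1.5-fold higher were 0, 0, 0, 2 and 3 of them, and 1 was lower by that much, at 12 h. Their median log2 fold change was 0.11, 0.29, 0.10, 0.30 and 0.42 in order of time. Cnn1 was called higher at all 5 times (1.4-fold at 1 h, 7.44-fold at 48 h). Pdgfra, Vwf and Cnn1 were singled out after their values were seen. Of 5 measured mesothelial markers, 1, 1, 3, 0 and 0 were lower at the 5 times, and of 3 measured Schwann cell markers 1, 2, 1, 0 and 1 were lower and 1 was higher at 48 h. The part of the cell types in the changes of Egfr and of the ligands was not tested.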

How the data were processed

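RNA of 35 NRVM samples, 5 biological replicates in each of 7 groups, had been hybridised to Affymetrix rat expression arrays. The authors made the deposited intensity values with Robust Multichip Average (RMA), which corrects background, makes the arrays' distributions alike and summarises the probes of a probe set, so differences between arrays are damped and dim probe sets are compressed. Here the intensities were taken to log2. In the table, 471 values in 427 probe sets had been turned into dates by a spreadsheet and were read back as intensities (0 in the probe sets of the members). After 57 array controls were left out of 31099, 31042 probe sets remained.

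In limma 3.58.1 (R 4.3.3), group means were fitted by set, with 16 and 12 residual degrees of freedom and a median residual SD of 0.114 and 0.12 (log2). The p-values were adjusted by Benjamini-Hochberg for each comparison, and calls were also counted at 1.5-fold. The fit was tested on simulated data. Number of arrays limits the precision. The annotation gave 1 gene for 20826 probe sets, several for 436 and none for 9780.

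All 10 members are named, and of each further list the neuregulins, Erbb4 and up to 4 genes past 1.5-fold with the largest change, and for 5 members the 3 genes most like them over set I. The members and lists were chosen with earlier results of these data known. Alternatives were other scalings, a filter on levels under 6, a one-way analysis of variance as in the study's methods, an intensity trend, array weights, each time with its control alone, a replicate block, 1 probe set per gene, other probe sets of a gene, converted values left out, and each array left out in turn. Tables were handled in Python 3.11.15 with pandas 2.3.3 and numpy 2.4.6.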

Additional observations from a re-analysis of the deposited data

Results flagged for a closer look

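Of 70 groups of 5 arrays examined, 4 held an array whose gap to the nearest other array, divided by the range of the group, was above the limit of 0.71, and chance gives about 1 in 20. In Errfi1, replicate 5 of the unstretched NRVMs of set I lay at 9.12 beside 4 arrays at 9.24 (0.940 of the range). In Btc, replicate 5 at 4 h lay at 6.33, above the rest (0.897). In Tgfa, replicate 2 at 1 h lay at 6.88, below the rest (0.825). In Erbb3, replicate 4 of the unstretched NRVMs of set I lay at 5.01, below the rest (0.718).

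Between times of a set, 17 of 40 differences of the members passed the test, given here as log2 differences. At 4 h against 1 h they were -0.48 for Areg, -1.27 for Ereg, -0.48 for Hbegf, 0.34 for Tgfa, 0.25 for Erbb2 and -1.55 for Errfi1. At 12 h against 4 h they were -0.49 for Hbegf, 0.70 for Tgfa and -0.37 for Errfi1. At 12 h against 1 h they were -0.33 for Areg, -1.08 for Ereg, -0.96 for Hbegf, 1.04 for Tgfa, -0.34 for Egfr and -1.92 for Errfi1. At 48 h against 24 h they were 0.91 for Areg and -0.39 for Egfr.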

How the results depend on the processing

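The calls of Areg, Ereg, Hbegf and Tgfa at all 5 times and of Errfi1 at 1 and 4 h held under every alternative run, and no called value of a member turned its direction. Counted over all comparisons, 28 calls were lost and 822 held when single arrays were left out, and 10 were lost and 478 held under the other alternatives. All those lost were of Erbb2 and Egfr.

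With each array centred on its median, 0 members were lower at 1 h, and 0 were lower by 1.5-fold at 4 and 12 h. With dim probe sets left out, 2 members were higher at 12 h than at 1 h. With array weights, 2 were lower at 1 h, 0 were lower by 1.5-fold at 4 h, and 2 were higher at 12 h than at 1 h. With each time fitted with its control alone, 2 were lower at 1 h, 1 was higher at 4 h than at 1 h, 2 at 12 h than at 1 h, and 2 at 48 h than at 24 h. With the mean over a gene's probe sets, 0 were lower by 1.5-fold at 4, 12 and 48 h, and 0 were lower at 48 h than at 24 h. For Egfr this mean takes in its dimmest probe set, with log2 fold changes of 0.16, -0.02 and 0.14 at 4, 12 and 48 h. Its brightest and next brightest probe sets were each past 1.5-fold at these times. In order of time they were at 0.656 and 0.584, 0.664 and 0.63, and 0.571 and 0.602 of unstretched NRVMs. With the next brightest probe set, 0 were lower at 24 h, and 0 were lower at 48 h than at 24 h. The cause was not tested.

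Without single arrays, the members lower at 1 h numbered 0 to 1, at 4 h 1 to 2 and at 24 h 1 to 2, those lower by 1.5-fold 0 to 1 at 4 h and 0 to 1 at 12 h, those higher at 12 h than at 1 h 1 to 2, and those higher at 48 h than at 24 h 1 to 2. The call of Erbb2 at 1 h was lost without replicate 2, 4 or 5 at 1 h or replicate 1, 2 or 4 of the unstretched NRVMs (adjusted p up to 0.0823), and at 48 h without replicate 2 or 5 at 48 h or replicate 2, 4 or 5 of the unstretched NRVMs (adjusted p up to 0.0725, and 0.0512 with the control alone).

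Log2 differences that turned were all uncalled. With centring they were Erbb2 at 24 h (0.0101) and Egf at 48 h (0.019). With array weights they were Btc at 4 h against 1 h (-0.028) and at 12 h against 4 h (0.0604), and Egfr (-0.0078) and Erbb3 (0.0045) at 12 h against 4 h. With the mean of its probe sets Egfr at 12 h against 4 h was -0.018. Without single arrays, Btc ranged over -0.031 to 0.075 (12 h against 1 h), -0.095 to 0.095 (12 h against 4 h) and -0.075 to 0.111 (4 h against 1 h), Egf over -0.119 to 0.028 (48 h) and -0.200 to 0.034 (4 h against 1 h), and Egfr over -0.122 to 0.115 (12 h against 4 h). Erbb2 ranged over -0.078 to 0.0104 (24 h) and -0.011 to 0.089 (4 h), Erbb3 over -0.034 to 0.059 (12 h), -0.081 to 0.039 (12 h against 4 h) and -0.00995 to 0.11 (4 h), and Ereg over -0.054 to 0.214 (48 h against 24 h).

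The study's methods state that stretch was started in steps within each culture, so arrays of different groups of a set can share a culture. The labels do not name the culture, and the replicate numbers gave no sign of a pairing. This cannot show that the arrays were unpaired, and the main fit took no shared culture into account. In set I, deviations of same-numbered arrays correlated at -0.297 to 0.339, and those of set II at -0.393 to 0.539, and 4 of 20 and 3 of 15 arrays correlated best with their own number. With the replicate block, the difference of Egfr at 12 h against 1 h (-0.34) had an adjusted p of 0.0575, and no other call of a member changed.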
